A study of Mus with 35 samples.

Results

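Voltage-gated sodium, potassium, calcium and hyperpolarization-activated channels set how neurons fire. They were followed in whole-brain RNA of mice with a mutation in Hnrnph2, an X-linked gene for a nuclear RNA-binding protein of the hnRNP H and F family that is linked to a neurodevelopmental disorder in people. The members were taken by gene symbol: the sodium channel alpha and beta subunits (Scn), the pore subunits of 5 families of voltage-gated potassium channels (Kcna, Kcnb, Kcnc, Kcnd and Kcnq), the HCN channels and the Cacna1 pore subunits of calcium channels. The rule found 49 genes among 55573 rows: 10 sodium alpha subunits, 4 sodium beta subunits, 22 potassium channel genes, 4 HCN genes and 9 calcium channel genes. It uses names and no measured value.

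An alpha subunit of a sodium or calcium channel forms the whole pore, whereas potassium and HCN channels assemble from several subunits that can come from different genes of a family. Sodium channels start the action potential, potassium channels end it and set the firing rate, calcium channels couple firing to transmitter release and to rhythmic discharge, and HCN channels pass a current at negative voltages that helps to pace neurons. Beta subunits change the gating and the surface level of sodium channels. Several of these genes are known causes of inherited epilepsy or ataxia.

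The 35 libraries come from male C57BL/6J mice in 3 cohorts: P209L with WT at 8 weeks (12 libraries), P209L with WT at 3 weeks (11) and R206W with WT at 3 weeks (12). Mutants are hemizygous males and WT animals are their littermates. Every animal, WT included, received 30 µg of an antisense oligonucleotide (ASO) into a brain ventricle on postnatal day 2 to 4, either a control ASO or an ASO directed at Hnrnph2, so there is no group without an ASO. Each cohort holds 4 groups of 3 libraries (WT or mutant, control or Hnrnph2 ASO). The exception has 2 libraries: P209L mutants at 3 weeks given the Hnrnph2 ASO. The cohort of the 3-week WT libraries is read from the library numbers and animal names in their titles. The R206W libraries carry a number series of their own, so allele and series cannot be told apart. In that cohort the animal names of the control-ASO mice and of the Hnrnph2-ASO mice have no stem in common, so stem and ASO cannot be told apart there. In the P209L cohorts some stems recur between groups. Most stems at 8 weeks start with TCF, and all of the 3-week P209L cohort start with AK. What a stem stands for is not given in the sources used here, and no fit uses it.

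Hnrnph2 itself, which checks the ASO label, averaged 98.9 to 109 TPM (transcript abundance scaled by length and library) in the 6 groups with the control ASO and 8.57 to 24.9 TPM in the 6 groups with the Hnrnph2 ASO. The labels name whole brain in the study design and cortex in the extraction protocol. Summed markers of cortical layers (113 to 190 TPM), striatal projection neurons (401 to 881 TPM) and cerebellar granule and Purkinje cells (779 to 1956 TPM) were present in every library. Of 8 markers of retina, muscle and heart, 5 had a mean below 1 TPM. The others, Myh7 (7.66 to 17.75 TPM), Actn2 (7.6 to 17.49 TPM) and Tnnt2 (3.71 to 8.8 TPM), were found in every library. In RNA of a whole tissue, fewer cells of a type and less RNA per cell cannot be told apart. TPM values are scaled to a fixed total, so the sequencing depth of each library is unknown.

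All levels in the next paragraphs are TPM, which are scaled by transcript length and can be set beside each other between genes, in the 9 WT libraries with the control ASO (mean ± SD, n = 9). Of the 49 genes, 40 reached a mean of 1 TPM over the 35 libraries. The 9 that did not were the peripheral nerve sodium channels Scn9a, Scn10a and Scn11a, the skeletal muscle channel Scn4a, the atypical Scn7a, the retinal calcium channel gene Cacna1f, and the potassium channel genes Kcnq1, Kcna7 and Kcna10. Scn9a (0.937 ± 0.277 TPM) and Scn7a (0.908 ± 0.186 TPM) were just below the limit, and Kcnb2 (4.10 ± 1.07 TPM), a Kv2 subunit gene, was above it. Kcna7 had the lowest mean (0.008 TPM) and was listed at 0 in some libraries.

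Among the sodium alpha subunits, Scn2a (81.2 ± 18.3 TPM) and Scn8a (70.9 ± 10.7 TPM), the subunits of the axon initial segment of excitatory neurons, stood above Scn1a (44.3 ± 9.88 TPM), the main subunit of fast-spiking interneurons. The first 2 overlapped, with Scn2a between 52.3 and 105 TPM and Scn8a between 52.1 and 86.1 TPM. Scn3a, best known from the developing brain, was at 12.05 ± 1.96 TPM. Over all 35 libraries Scn2a held 36.9% ± 1.86 of the summed sodium alpha TPM, Scn8a 33.8% ± 1.63, Scn1a 21.6% ± 1.71 and Scn3a 5.80% ± 0.547 (SD, n = 35). These shares varied less between libraries than the levels did.

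Among the sodium beta subunits, Scn2b was at 134 ± 11.1 TPM, followed by Scn4b (78.7 ± 24.3 TPM) and Scn3b (53.9 ± 4.49 TPM). Scn4b, which supports rapid repetitive firing, ranged from 50.9 to 122 TPM and so overlapped Scn3b.

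Among the potassium channel genes, Kcnc1, a Kv3 subunit of fast-spiking neurons, was at 131 ± 7.98 TPM. Kcna2, a Kv1 subunit of axons, was at 62.9 ± 11.02 TPM, Kcnd2, the A-type channel of dendrites, at 50.2 ± 4.50 TPM, and Kcna1, another axonal Kv1 subunit, at 49.8 ± 12.3 TPM. Kcnc1 lay between 121 and 143 TPM, above every value of the other 3. Kcna2 (47.8 to 77.2 TPM), Kcnd2 (42.1 to 56.6 TPM) and Kcna1 (25.2 to 67.3 TPM) overlapped.

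Of the HCN genes, Hcn2 stood at 106 ± 16.5 TPM, well apart from Hcn3 (11.4 ± 0.755 TPM) and Hcn4 (5.91 ± 0.960 TPM). The last 2 did not overlap, with Hcn3 between 10.3 and 12.7 TPM and Hcn4 between 4.51 and 7.27 TPM. Calcium channels were led by Cacna1a (123 ± 24.7 TPM), the P/Q-type pore of presynaptic terminals and Purkinje cells, and Cacna1g (102 ± 24.8 TPM), a T-type pore. Cacna1e (R-type, 51.2 ± 9.10 TPM), Cacna1d (L-type, 34.7 ± 7.90 TPM) and Cacna1b (N-type, 32.3 ± 5.12 TPM) followed, and the last 2 overlapped.

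**Figure D1:**
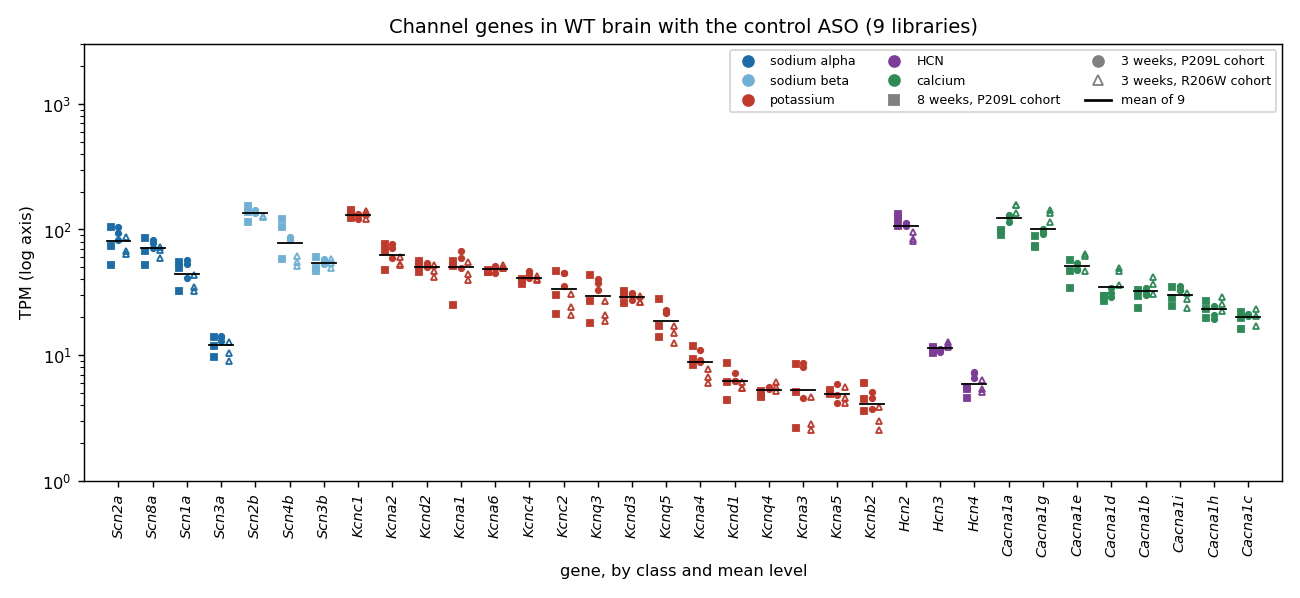
TPM on a log axis of 34 genes that reached 1 TPM on average, by class and mean level, in the 9 WT libraries with the control ASO; marker shapes give the cohort and bars the mean. Scn2b (134 TPM), Kcnc1 (131 TPM), Cacna1a (123 TPM) and Hcn2 (106 TPM) lie highest of the genes drawn in their classes, and neighbouring genes mostly overlap.

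Many members lie side by side in the genome. Joining members at most 1 megabase apart in the RefSeq annotation of mm10 gave 7 clusters with 22 of the 49 genes. The largest, on chromosome 2 from 65457118 to 66784910, holds Scn3a, Scn2a, Scn1a, Scn9a and Scn7a, of which the first 3 had means above 10 TPM and the others means below 1 TPM. A cluster on chromosome 9 from 45117876 to 45154155 holds Scn2b and Scn4b. Kcna3, Kcna2, Kcna10 and Kcnc4 share chromosome 3 from 107036162 to 107460287.

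The first comparison asks what the mutations do to channel transcripts: mutant against WT, both with the control ASO, averaged over the 3 cohorts. Differences are log2 fold changes on the log2(TPM + 1) scale, which understates changes of low genes, and limma's adjusted p covers all genes tested. A gene is called at an adjusted p under 0.05. Of the 40 members tested, 2 rose, Kcnc4 among them, and 2 fell (Kcnc1 and Kcna6), which is 10% of the members against 4.28% of all genes tested (2.55% higher and 1.73% lower). At an unadjusted p under 0.05 there were 7. The median member difference was 0.03 and that of all genes 0.01.

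Kcnc4 encodes Kv3.4, a fast-inactivating Kv3 subunit, and lies on chromosome 3 from 107438298 to 107460287. At 8 weeks its TPM values were 39.9, 36.5 and 40 in WT and 49.6, 47.9 and 48.4 in P209L. In the P209L cohort at 3 weeks they were 46.5, 41.1 and 44.5 in WT and 52.4, 50.7 and 47.9 in mutants, and in the R206W cohort 39.7, 40.1 and 43.0 in WT and 48.0, 46.5 and 45.0 in mutants. Every mutant library lay above every WT library of its cohort. The differences were 0.32, 0.19 and 0.18, and their average was 0.23 (SE 0.034, adjusted p = 7.51e-05). Leaving out any 1 of the 18 libraries kept the adjusted p at or below 0.000351.

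Kcna6, a Kv1 subunit gene on chromosome 6 from 126708328 to 126740834, was lower in mutants of each cohort. WT libraries had 47.4, 46.1 and 46.1 TPM and P209L libraries 45.1, 41.8 and 43.6 TPM at 8 weeks. At 3 weeks the values were 49.5, 51.5 and 44.7 TPM in WT against 40.8, 37.5 and 41.1 TPM in P209L, and in the R206W cohort 49.6, 49.3 and 51.9 TPM in WT against 46.4, 46.9 and 46.3 TPM. No mutant library reached the WT range of its cohort. The average was -0.16 (SE 0.046, adjusted p = 0.0427), a call that was lost in 15 of the 18 runs that left out 1 library each, with adjusted p up to 0.0985. It was also lost after rescaling by the median of ratios (adjusted p = 0.0703) and without the filter on low genes (adjusted p = 0.0776).

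Kcnc1 encodes Kv3.1 (chromosome 7, 46396219 to 46438706). At 8 weeks WT had 143, 124 and 136 TPM and P209L 122, 142 and 140 TPM, which overlap. In the 3-week P209L cohort WT had 133, 121 and 131 TPM and mutants 107, 117 and 105 TPM, and in the R206W cohort WT had 133, 141 and 121 TPM and mutants 110, 108 and 101 TPM. Both 3-week cohorts had every mutant below every WT library. The differences were 0.00, -0.22 and -0.30 and the average was -0.17 (SE 0.051, adjusted p = 0.0484). The call was lost in 14 of 18 runs that left out 1 library each (adjusted p up to 0.116). With the cerebellar covariate the value was -0.12 (adjusted p = 0.187). The summed cerebellar markers were 1049 to 1956 TPM (median 1215) in the 9 WT libraries and 926 to 1443 TPM (median 1152) in the 9 mutant libraries. By cohort, their medians in WT and mutants were 1215 and 1152 TPM at 8 weeks and 1163 and 995 TPM in P209L at 3 weeks. In the R206W cohort they were 1713 and 1234 TPM, with ranges of 1357 to 1956 TPM and 1147 to 1443 TPM. The markers of vessels and mural cells summed to 170 to 208 TPM in the WT and 149 to 183 TPM in the mutant libraries. The part of the vessel markers in these differences was not tested.

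**Figure D2:**
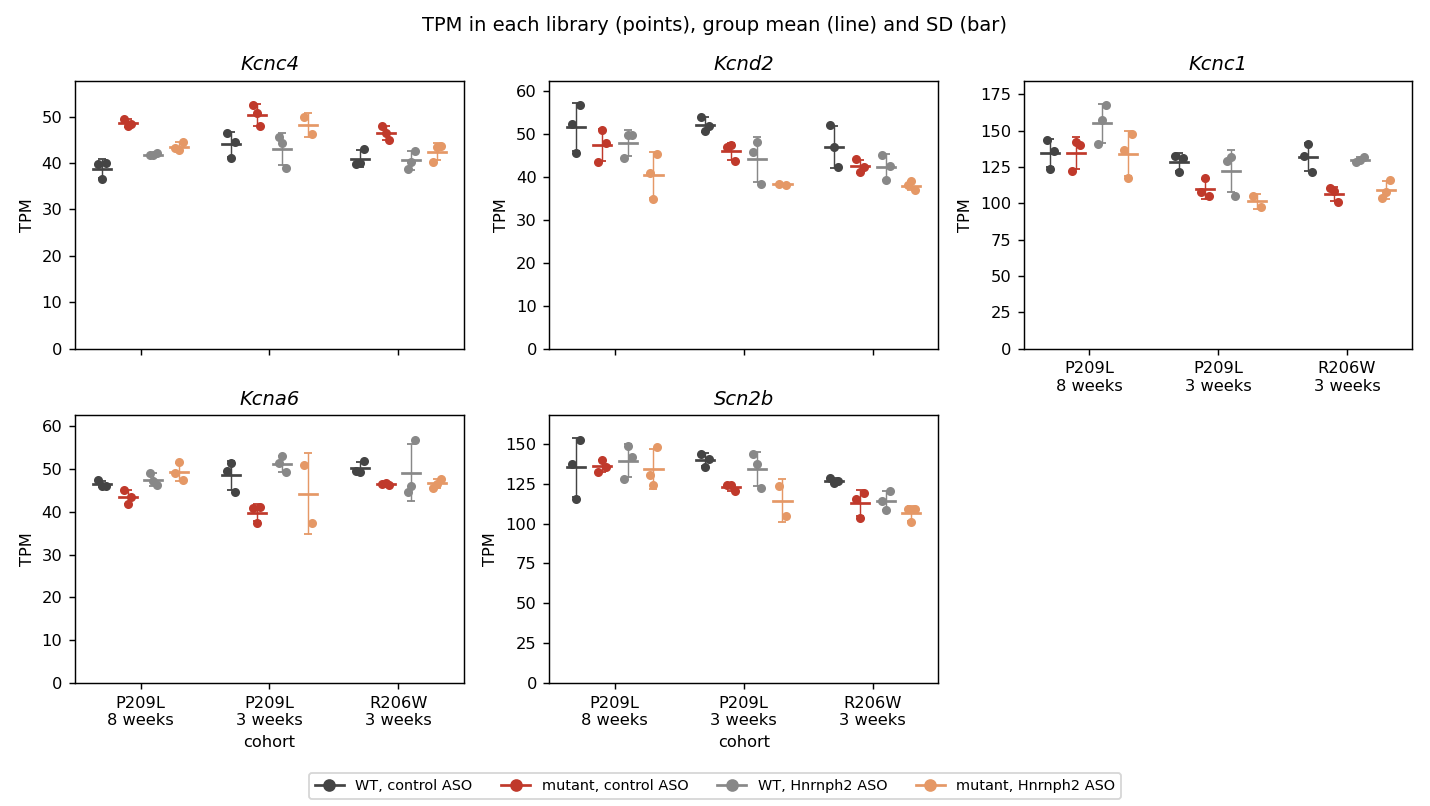
TPM of Kcnc4, Kcnd2, Kcnc1, Kcna6 and Scn2b in each of the 35 libraries (points) by cohort and group, with group means (lines) and SD (bars); the axes start at 0. Kcnc4 was higher in control-ASO mutants than in control-ASO WT in all 3 cohorts, and Kcnd2 was lowest in mutants with the Hnrnph2 ASO.

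Cohort by cohort, the fits had 3 against 3 libraries. P209L at 8 weeks gave 1 call among 42 members, Kcnc4 at 0.32 (SE 0.053, adjusted p = 0.0491), where 0.17% of all genes were called (0.163% higher and 0.00605% lower). That call was lost in 5 of 6 runs that left out 1 library, all but the run without WT replicate 3 (adjusted p up to 0.265), and when only the 2 groups compared were fitted (adjusted p = 0.662). P209L at 3 weeks gave 0 calls by limma among 40 members (0.133% of all genes, all of them higher; 6 members at an unadjusted p under 0.05). The smallest p there was that of Cacna1b, the N-type calcium channel pore (0.28, SE 0.080, adjusted p = 0.314). R206W also gave 0 calls by limma (0.133% of all genes, 0.127% higher and 0.00606% lower; 4 members at an unadjusted p under 0.05), led by Kcnc1 (-0.30, SE 0.064, adjusted p = 0.147) and followed by Kcnc4 (0.18, adjusted p = 0.387).

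The mutation effects of the 2 alleles at 3 weeks were also tested against each other. No member differed by limma (0% of all genes; 1 member at an unadjusted p under 0.05). The value for Cacna1b, R206W minus P209L, was -0.37 with a 95% interval of -0.73 to -0.0048 and an adjusted p of 1. Those for Cacna1d and Cacna1e were -0.31 (-0.63 to 0.01) and -0.40 (-0.84 to 0.04). Intervals of this width include differences as large as the averaged effects above.

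Partners and other channel families were read from 6 lists with 79 genes, 70 of them tested. For the averaged mutation effect 4 rose and 2 fell, beside 4.28% of all genes called (2.55% higher and 1.73% lower). Those that rose were Cacna2d1, a calcium channel subunit and the target of gabapentin (0.32, SE 0.068, adjusted p = 0.00551), Cacng7, a gamma subunit gene (0.22, adjusted p = 2.42e-05), Cacnb1, a beta subunit (0.17, adjusted p = 0.00411), and Kcns1, a silent potassium channel subunit (0.22, adjusted p = 0.0188). Cacng5 (-0.25, adjusted p = 0.0384) and Cntn2, an adhesion molecule of the region beside the node of Ranvier (-0.24, adjusted p = 0.00199), fell. In the 3-week P209L cohort summed myelin markers were 14709 to 16668 TPM in control-ASO WT and 13346 to 13933 TPM in control-ASO mutants, without overlap. They overlapped in the other cohorts, and their part in these differences was not tested.

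The second comparison asks what the Hnrnph2 ASO does to these genes. In WT it gave 0 calls by limma among 40 members (0.187% of all genes, 0.0966% higher and 0.0906% lower; 2 members at an unadjusted p under 0.05). The smallest p was that of Kcnd2 (-0.16, SE 0.053, adjusted p = 0.271), and Cacna1d was at -0.11 (adjusted p = 0.597). In mutants it gave 1 lower, Kcnd2, 2.5% of the members against 2.5% of all genes (1.19% higher and 1.31% lower), so the share is that of the background. This gene encodes Kv4.2, the A-type potassium channel of dendrites (chromosome 6, 21215346 to 21729805).

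At 8 weeks Kcnd2 had 43.4, 50.9 and 47.8 TPM in P209L with the control ASO and 40.9, 34.8 and 45.3 TPM with the Hnrnph2 ASO, which overlap. At 3 weeks P209L had 46.8, 47.3 and 43.5 TPM against 38.3 and 38.1 TPM, and R206W 44.0, 41.0 and 42.1 TPM against 38.1, 38.9 and 36.8 TPM. Both 3-week cohorts were without overlap. The averaged ASO effect in mutants was -0.21 (SE 0.056, adjusted p = 0.0336). It did not pass in 10 of 17 runs that left out 1 library (adjusted p up to 0.108) or without the filter on low genes (adjusted p = 0.065).

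The test of whether the ASO acts differently in mutants and WT called no member by limma (0.302% of all genes, 0.0181% higher and 0.284% lower; 3 members at an unadjusted p under 0.05). Kcnc4 (-0.14, SE 0.049, adjusted p = 0.468) and Kcna2 (-0.27, SE 0.12, adjusted p = 0.667) were among those 3. For Kcnc4 the mutants with the Hnrnph2 ASO had 43.2, 42.8 and 44.6 TPM at 8 weeks, 50.0 and 46.3 TPM in the P209L cohort at 3 weeks and 40.3, 43.4 and 43.7 TPM in the R206W cohort. At 8 weeks and in the R206W cohort these lie below all control-ASO mutants, and in the 3-week P209L cohort they overlap them. The ASO effect on Kcnc4 in mutants was -0.12 with an adjusted p of 0.0794. The ASO effect in mutants and its difference from WT use the same control-ASO mutant libraries as the mutation comparison, with the opposite sign. A rise with the mutation and a fall with the ASO are therefore not independent results. Among the partner genes in mutants, Cacna2d1 fell by 0.34 on the log2 scale (adjusted p = 0.00506), Cacng7 fell by 0.25 (adjusted p = 6.72e-06) and Kcnmb4, a subunit of calcium-activated potassium channels, rose by 0.15 (adjusted p = 0.0274). For Cacng7 the ASO effect in mutants also differed from that in WT (-0.22, adjusted p = 0.0112).

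Mutants with the Hnrnph2 ASO were then set against WT with the control ASO. This comparison shares its WT libraries with the mutation comparison and its mutant libraries with the ASO comparison. Of 40 members 3 fell and 0 rose (with the replicate number as a block, 3 and 1), 7.5% of the members against 4.83% of all genes (2.71% higher and 2.12% lower): Kcnd2, Kcnc1 and Scn2b. For Kcnd2 the WT libraries had 52.2, 45.5 and 56.5 TPM at 8 weeks, 53.9, 50.6 and 51.7 TPM in the P209L cohort at 3 weeks and 51.9, 46.8 and 42.1 TPM in the R206W cohort. Set beside the ASO-treated mutants above, every mutant lay below every WT library of its cohort. The differences were -0.35, -0.44 and -0.30 and the average was -0.36 (SE 0.056, adjusted p = 0.000453). It passed without any 1 of the 17 libraries, with adjusted p up to 0.0033.

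Kcnc1 had 137, 117 and 148 TPM in treated P209L at 8 weeks, 105 and 97.7 TPM in treated P209L at 3 weeks and 104, 107 and 116 TPM in treated R206W, below all control WT libraries of the cohort at 3 weeks but not at 8 weeks. Its average was -0.21 (SE 0.053, adjusted p = 0.0238), and that of the beta 2 sodium channel subunit gene Scn2b was -0.18 (SE 0.050, adjusted p = 0.0303). For Scn2b the 8-week libraries had 138, 116 and 153 TPM in WT against 130, 124 and 148 TPM in treated P209L, which overlap. At 3 weeks WT had 144, 136 and 141 TPM against 124 and 105 TPM, and in the R206W cohort 129, 125 and 127 TPM against 109, 101 and 109 TPM. Both 3-week cohorts were separate. Neither call held when only the 6 groups compared were fitted (adjusted p = 0.0549 for Kcnc1 and 0.104 for Scn2b) or with the cerebellar covariate (0.219 and 0.0684). Leaving out 1 library ended the Kcnc1 call in 5 of 17 runs (adjusted p up to 0.124, without replicate 2 of P209L with the Hnrnph2 ASO at 3 weeks) and the Scn2b call in 8 (up to 0.198). Of the partners, Kcns1 (0.32, adjusted p = 0.00114), Kcnh3 (0.26, adjusted p = 0.0342) and Cacnb1 (0.14, adjusted p = 0.025) rose and Cntn2 fell by 0.36 (adjusted p = 8.29e-05).

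**Figure D3:**
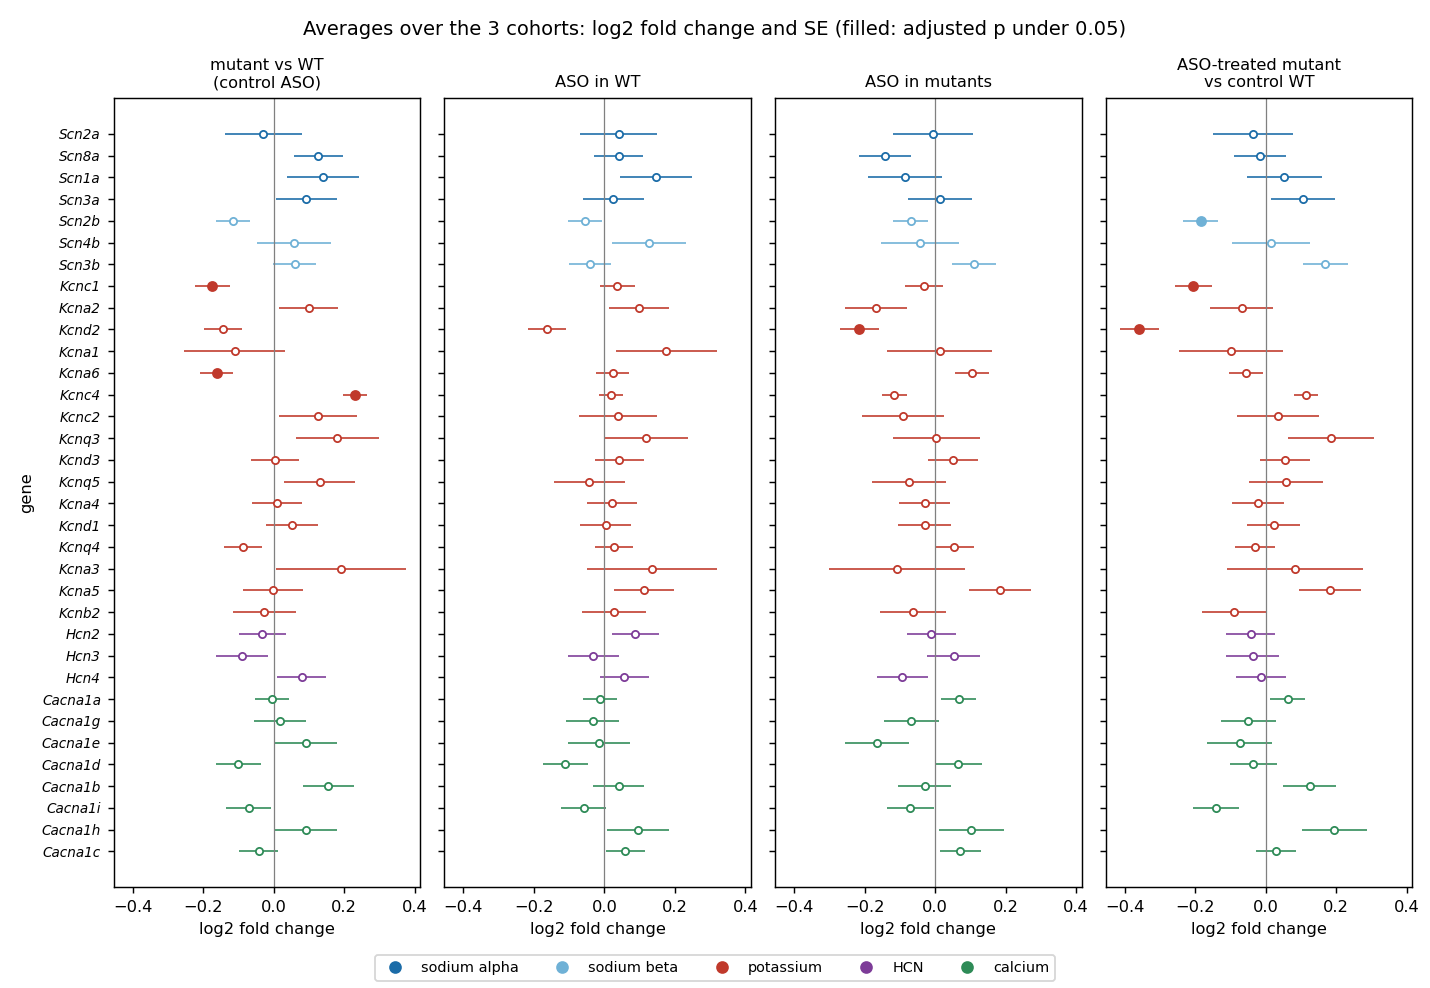
Log2 fold change (points) and SE (bars) of 34 channel genes, by class, for 4 comparisons averaged over the 3 cohorts; filled points have an adjusted p under 0.05. The filled points are Kcnc4, Kcnc1 and Kcna6 for the mutation, none for the ASO in WT, Kcnd2 for the ASO in mutants, and Kcnd2, Kcnc1 and Scn2b for treated mutants against control WT.

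The third comparison is age, 8 weeks against 3 weeks in the 2 P209L cohorts, averaged over the 4 groups of genotype and ASO. Of 40 members 5 rose and 12 fell, 42.5% of the members against 42.1% of all genes (15.5% higher and 26.6% lower), so the share is that of the background. The median member difference was -0.08 and that of all genes -0.03. No cohort holds both ages, so age and cohort cannot be told apart. Markers moved with it: summed myelin markers were 5979 to 8575 TPM at 8 weeks and 12551 to 16668 TPM at 3 weeks, oligodendrocyte precursor markers 142 to 183 TPM and 207 to 277 TPM, excitatory neuron markers 635 to 857 TPM and 735 to 1000.03 TPM, and immature neuron markers 652 to 751 TPM and 738 to 990 TPM. Their part in the channel differences was not tested.

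Among the genes that rose, Hcn2, which carries most HCN transcript here, had 108 to 132 TPM in control WT at 8 weeks (3 libraries) and 107 to 112 TPM at 3 weeks, which overlap. With the Hnrnph2 ASO WT had 133 to 146 TPM against 87.1 to 107 TPM, without overlap. Its averaged change was 0.38 (SE 0.060, adjusted p = 1.27e-05). Scn4b (0.31) and Kcnc1 (0.27) were among the others that rose. All 5 genes that rose stayed called without any 1 of the 23 libraries.

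Calcium channels moved in 1 direction: 5 of the 8 tested pores fell and 0 rose, with a class median of -0.19, beside 26.6% of all genes called lower. Cacna1a went from 115 to 132 TPM in control WT at 3 weeks to 90.2 to 99.5 TPM at 8 weeks, without overlap, and its averaged change was -0.30 (SE 0.043, adjusted p = 2.33e-06). Cacna1g changed by -0.24, Cacna1b by -0.20, and the L-type pore genes Cacna1d and Cacna1c by -0.19 each. Hcn4, the slow HCN subunit best known from the sinoatrial node and thalamus, had 6.58 to 7.27 TPM at 3 weeks and 4.51 to 5.54 TPM at 8 weeks in control WT and fell by 0.36 (SE 0.062, adjusted p = 3.74e-05). Kcnq3, a subunit of the M current, fell by 0.28. The remaining genes that fell were Kcnc2 (-0.26), Scn3a (-0.25), Kcna5 (-0.23) and 2 with smaller changes. In WT alone, against the same 3-week cohort, Kcna5 was at -0.08 (adjusted p = 0.638) by limma. Cacna1b (-0.14, adjusted p = 0.251) and Cacna1d (-0.17, adjusted p = 0.105) did not pass there either, whereas Cacna1a, Cacna1g and Cacna1c did. The calls of Kcnq3 and Kcnc2 were lost in 8 and 13 of 23 runs that left out 1 library, and that of Kcna5 without replicate 2 of P209L with the Hnrnph2 ASO at 3 weeks (-0.17, adjusted p = 0.0886).

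No member passed the test of whether age acts differently in mutants and WT, nor that of age by ASO (limma, 0% of all genes in both, 2 members each at an unadjusted p under 0.05). The smallest p-values were those of Kcna6 (0.23, SE 0.083, adjusted p = 0.381) and Hcn2 (0.35, SE 0.12, adjusted p = 1). Without replicate 1 of P209L with the Hnrnph2 ASO at 3 weeks, which leaves 1 library in that group, Kcna6 passed the first of these tests (0.34, adjusted p = 0.0189). Of the 70 partner genes tested for age, 9 rose and 23 fell, a share close to the 42.1% of all genes called. The largest fall was that of Nfasc, an adhesion molecule known from the axon initial segment and node (-0.86, adjusted p = 6.54e-12). Summed myelin markers were also lower at 8 weeks, as given above, and their part in the Nfasc value was not tested. The largest rise was that of Kcne2 (0.76, adjusted p = 2.7e-05), a potassium channel partner also known from the choroid plexus. Pex5l, the HCN channel trafficking partner, rose by 0.36 (adjusted p = 0.00163).

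The age differences depend on which 3-week mice stand for the young brain. The 8-week WT libraries were set against the 3-week WT libraries of each cohort in turn, a step chosen after the data were seen. Against the P209L cohort 3 members rose and 4 fell (25.6% of all genes called, 7.04% higher and 18.6% lower), and against the R206W cohort 14 rose and 4 fell (35.8% of all genes called, 13.7% higher and 22.1% lower). Both comparisons share their 6 WT libraries at 8 weeks. Against the P209L and then the R206W cohort, Hcn2 was at 0.33 and 0.48 and Cacna1a at -0.29 and -0.54, called by limma in both. Scn4b was at 0.28 (adjusted p = 0.115) and 0.80 (adjusted p = 3.19e-05). Cacna1c was at -0.19 (adjusted p = 0.0393) and -0.03 (adjusted p = 0.745). Cacna1b was at -0.14 and -0.16, called in neither. Kcnq3 was at -0.25 (adjusted p = 0.22) against the first and 0.45 (adjusted p = 0.0164) against the second. Kcnc2 was at -0.34 (adjusted p = 0.0691) and 0.45 (adjusted p = 0.0119), and Scn3a at -0.23 (adjusted p = 0.121) and 0.18 (adjusted p = 0.198). Hcn4 was at -0.385 (adjusted p = 0.00123) and -0.03 (adjusted p = 0.806).

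**Figure D4:**
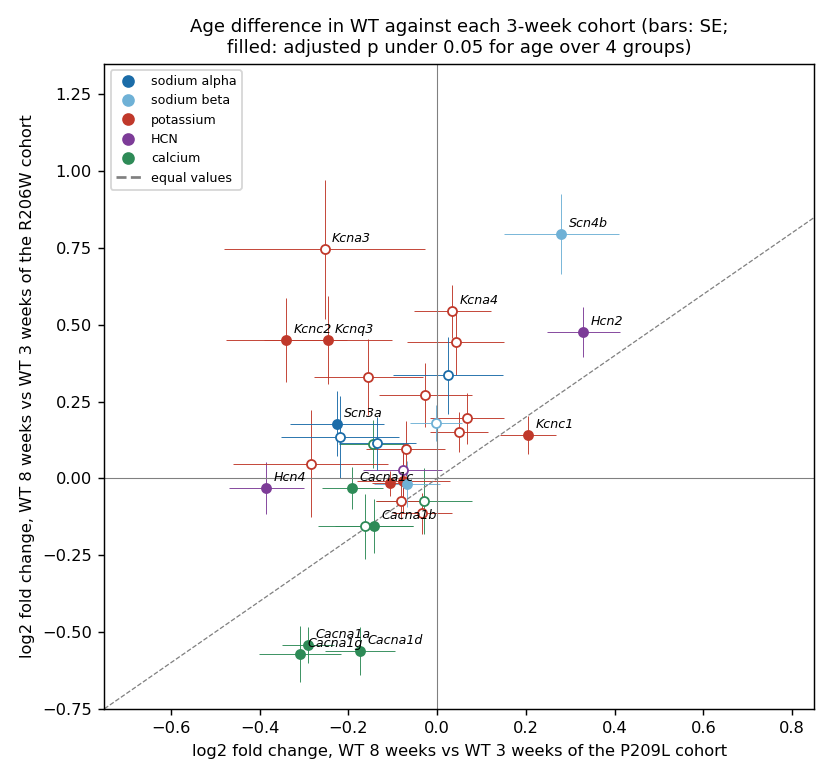
Log2 fold change of WT at 8 weeks against WT at 3 weeks of the P209L cohort (x axis) and of the R206W cohort (y axis) for 34 channel genes, with SE; filled points were called for age over 4 groups, and the dashed line marks equal values. Kcnc2 and Kcnq3 lie left of 0 on one axis and above 0 on the other, whereas Cacna1a, Cacna1g and Cacna1d are negative on both.

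The 2 sets of WT mice at 3 weeks, 6 libraries each with both ASOs, were therefore compared directly. This comparison was also added after the data were seen. All control-ASO WT libraries of the R206W cohort share a stem in their animal names, as do some of its WT libraries with the Hnrnph2 ASO. The stems of the 3-week P209L-cohort WT libraries all differ. The fit treats every library as independent, so the SE may be too small if animals of a stem are alike. In the R206W cohort 18 members were lower and 3 higher than in the P209L cohort, 52.5% of the members against 27.1% of all genes (16.2% lower, 10.9% higher). The median member difference was -0.18 and that of all genes -0.02. Sodium alpha subunits were lower in 4 of 5, potassium channel genes in 9 of 19, HCN genes in 2 of 4 and sodium beta subunits in 2 of 4, whereas calcium channel pores were higher in 3 of 8 and lower in 1.

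Kcnc2, a Kv3 subunit of fast-spiking interneurons, had 35.2, a median of 43.7 and 45.9 TPM as lowest, middle and highest in the P209L cohort and 20.2, 23.6 and 30.5 TPM in the R206W cohort. These ranges do not overlap, and the difference was -0.79 (SE 0.14, adjusted p = 0.000544). For Kcnq3 the same values were 33.1, 38.0 and 40.5 TPM against 18.6, 21.7 and 27.0 TPM, again apart, with a difference of -0.70 (SE 0.14, adjusted p = 0.00188). Kcna4, an A-type Kv1 subunit, had 8.28 to 11.1 TPM against 5.59 to 7.81 TPM (-0.51, SE 0.087, adjusted p = 0.000467). Kcna3 had the largest value, -0.999 (SE 0.23, adjusted p = 0.00339), from 4.57 to 9.77 TPM against 2.45 to 4.67 TPM, which overlap.

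Scn4b (-0.52), the M-current gene Kcnq5 (-0.49), the Kv2 gene Kcnb2 (-0.40), Scn3a (-0.40), Scn2a (-0.35) and Hcn4 (-0.35) were lower as well. Scn2a was near the threshold (adjusted p = 0.0487) and lost its call in 9 of 12 runs that left out 1 library. On the other side Cacna1d had 29.3 to 34.2 TPM in the P209L cohort and 33.2 to 48.9 TPM in the R206W cohort, which overlap (0.39, SE 0.078, adjusted p = 0.00153). Cacna1a was at 0.25 (adjusted p = 0.00404) and Cacna1g at 0.26 (adjusted p = 0.0363, lost in 8 of 12 such runs). Ranges were separate for 5 of the 40 members, all lower in the R206W cohort, beside 8.79% of all genes (3.36% higher and 5.44% lower): Kcnc2, Kcnq3, Kcna4, Hcn4 and Kcnd1, the last of which was not called (-0.17, adjusted p = 0.158).

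Regional markers moved with this difference. In WT at 3 weeks the cerebellar markers summed to 921 to 1172 TPM in the P209L cohort and 1357 to 1956 TPM in the R206W cohort, and the cortical layer markers to 152 to 175 TPM and 113 to 146 TPM. Neither pair overlaps, and none of the 12 cerebellar or 6 cortical markers had a mean below 1 TPM. With the cerebellar markers as a covariate limma called 0 members, and 2 of all 16556 genes, so the loss of calls was not particular to the channels. Because these markers themselves separate the 2 cohorts, cohort and covariate can hardly be told apart in this fit. Under the covariate Kcna3 was at -1.19 (adjusted p = 0.111), Kcnc2 at -0.73 (adjusted p = 0.111), Cacna1a at 0.09 (adjusted p = 0.503) and Cacna1g at 0.02 (adjusted p = 0.957). In the fit without the covariate, 26 of the 70 partner genes were lower and 2 higher, beside 16.2% and 10.9% of all genes, with the lowest values for Kcnh5 (-1.08, adjusted p = 0.0021) and Kcnh7 (-0.64, adjusted p = 0.00333), both ether-a-go-go potassium channel genes.

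Within groups the members also varied together. The first component of the deviations from the group means held 60.2% of the within-group variation of the 40 members. Over all tested genes the share was 14.4%, but a small set reaches a large share more easily. The loading of the members' component was positive for 35 of 40 and largest for Kcna3, Kcna1, Kcnq3, Scn2a, Kcnc2 and Scn1a. Kcna3 and Kcna1 also had the largest SD within groups (0.417 and 0.323), which gives them more weight. These are descriptions over 35 libraries.

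WT replicates 2 and 3 with the control ASO at 8 weeks stood farthest apart. In replicate 2 the median deviation of the members was -0.22 and 2 of 40 were above the group mean, and in replicate 3 it was 0.21 with 33 of 40 above. The medians over all genes were -0.07 and 0.04. Kcnq3 had 26.9, 17.9 and 43.7 TPM in these 3 replicates and Scn4b 104, 58.0 and 122 TPM. The cortical layer markers, 139, 121 and 185 TPM, were also lowest in replicate 2 and highest in replicate 3, and their part was not tested. With both left out, the averaged mutation effect kept its 2 higher calls, while Kcnc1 (-0.21, adjusted p = 0.0505) and Kcna6 (-0.17, adjusted p = 0.0916) did not pass.

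**Figure D5:**
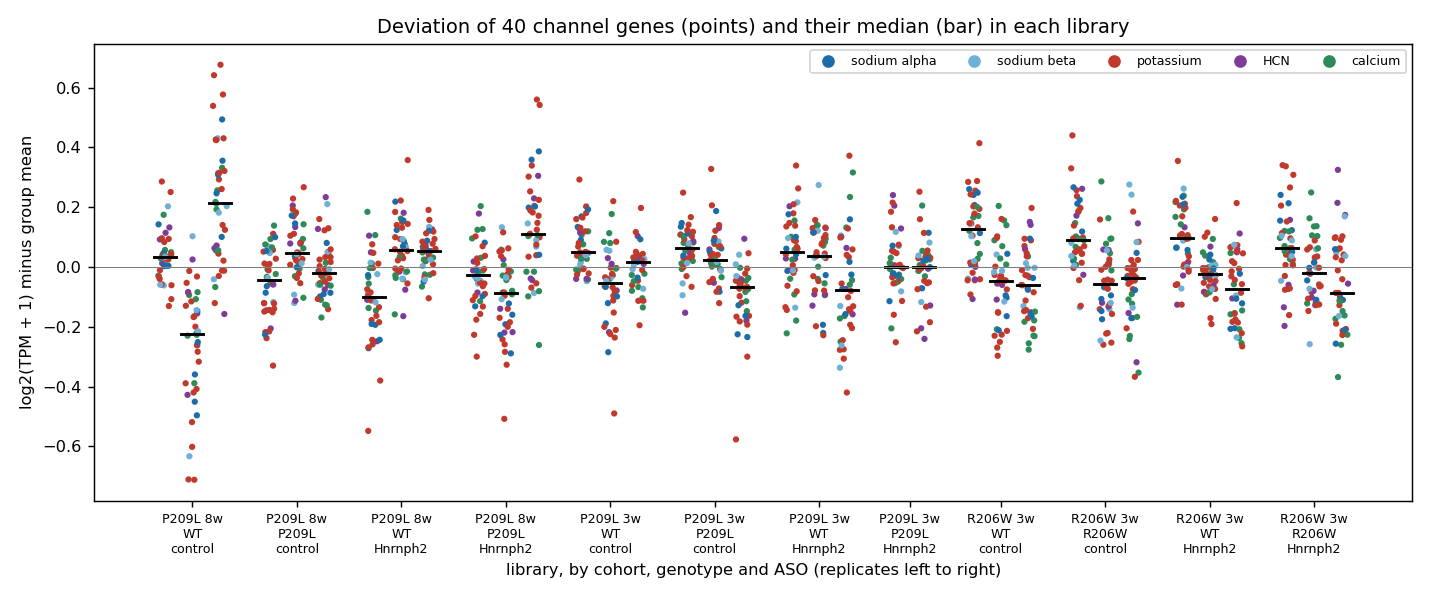
Deviation of log2(TPM + 1) from the group mean for 40 channel genes (points) and their median (bar) in each of the 35 libraries, ordered by cohort, genotype and ASO. Replicates 2 and 3 of WT with the control ASO at 8 weeks have the lowest and the highest median, -0.22 and 0.21.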

How the data were processed

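Total RNA was made into stranded libraries, per the labels' protocols. The submitters' processing notes name Trim Galore, STAR 2.7.1a, RSEM and GATK 4.0.4.0 and the build mm10, without roles. The authors deposited 1 table of TPM per gene with 55573 rows, and its 35 columns share 1 fixed sum, so read totals are unknown. The strand setting of the counting is not given in the sources used here, so reads of Kcnq1 and Kcnd3 and of their antisense partners may be mixed. Members and gene lists were chosen with earlier results of these data known.

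Groups came from the sample titles. Means and SD are of TPM. Two-sided moderated tests on log2(TPM + 1) were run in R 4.3.3 with limma 3.58.1, whose eBayes step fitted an intensity trend. Genes averaging under 1 TPM in the fitted libraries were dropped, with Benjamini-Hochberg adjustment over all genes tested. Averages and age used all 35 libraries in 12 groups; effects within a cohort used that cohort. Replicates are separate animals by their names, some of which share a stem. Named genes are up to 10 called members per direction and comparison, or the 3 with the smallest p where none was called; for levels, the 5 highest per class. Members below 1 TPM were named too. Results of some members are not reported here, and the figures that name genes leave them out; counts cover all members. The script was tested on simulated data. Alternatives were a pseudocount of 0.5, a minimum of 5 TPM or none, rescaling by the median of ratios, only the compared groups, a replicate block, a cerebellar covariate and leaving out each library. RefSeq gave coordinates for all 49 members; no sequences were used.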

Additional observations from a re-analysis of the deposited data

How the results depend on the processing

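Of 1483 values of named members under alternative settings, 1329 kept their direction and side of the threshold, 150 lost and 1 gained a call, and 3 changed sign. The 3 are the age values of Kcnq3 (0.45), Kcnc2 (0.45) and Scn3a (0.18) in WT against the 3-week R206W cohort, where 14 members were called higher and 4 lower; against the 3-week P209L cohort these counts were 3 and 4, from 5 and 12. For P209L at 8 weeks, the 1 member called higher became 0 with a pseudocount of 0.5, after rescaling, with only the compared groups, with the replicate block, with the cerebellar covariate and without WT control replicates 2 and 3. For the averaged mutation effect, the 2 called lower became 0 without the filter and without those replicates and 1 with the covariate, and the 2 called higher became 1 after rescaling and with the covariate. For the ASO in mutants the 1 called lower became 0 without the filter and 2 with the replicate block. For treated mutants the 3 called lower became 1 with only the compared groups or the covariate, and the 0 called higher became 1 with the replicate block. For the 3-week WT cohorts the 3 higher and 18 lower became 0 and 0 with the covariate, under which 2 of all 16556 genes were called. The causes were not tested. Same-numbered samples deviated together for treated mutants against control WT at 8 weeks and in the R206W cohort. Every correlation there was over 0.1 (lowest 0.123 and 0.104). Not every correlation passed 0.1 for any other groups compared, which does not exclude pairing. For the ASO in WT at 3 weeks, all 3 samples correlated most with their own number. This held in the P209L (0.0537 to 0.109) and R206W (0.0647 to 0.141) cohorts. In the remaining groups compared, 0 to 2 samples did so. In each R206W group the members' first component was positive in replicate 1 (0.168 to 0.225) and negative in replicates 2 and 3. Only the replicate block fit uses these numbers.

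Leaving out 1 library each gave 0 to 1 lower for the averaged mutation effect, 0 to 1 higher for P209L at 8 weeks, 0 to 1 higher and 0 to 1 lower for the ASO in mutants, 0 to 2 higher and 1 to 3 lower for treated mutants, 5 to 6 higher and 9 to 17 lower for age, 0 to 1 higher for age by genotype, and 2 to 4 higher and 10 to 20 lower for the 3-week cohorts. Where this leaves 1 P209L library with the Hnrnph2 ASO at 3 weeks, it is assumed to vary like the other groups. Restricting the ASO by genotype test to the compared groups gives the same fit and was not run separately. Without read totals, no counting error can be given.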
